A study of Mus musculus with 33 samples.

Results

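A set of 8 genes with much less RNA in tumour CD8 T cells after interleukin 12 (IL-12), given alone or after radiation, was followed through 3 immune cell populations of mouse pancreatic tumours. The genes are Acss1, Slc43a1, Camkk1, Matk, Usp28, Nckap5l, Mturn and Ypel3. They are 8 of 53735 gene names in each of 9 tables deposited by the authors and were taken by name. They had been picked for large falls in CD8 cells after IL-12 or after the combination, so those values are given here as a description without a test.

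RNA was sequenced from cells sorted from KCKO pancreatic ductal adenocarcinoma, a mouse cell line implanted orthotopically, as 100000 cells, into the pancreatic tail of C57BL/6 mice. All tumours also received titanium markers that guide the beam. The sorted populations were CD8 T cells (CD45+CD8+), inflammatory monocytes (IM, CD45+CD11b+Ly6C+Ly6G-) and tumour-associated macrophages (TAM, CD45+CD11b+Ly6CmodLy6G-F480+). The SBRT group received stereotactic body radiotherapy, 4 fractions of 6 Gy on days 6 to 9 after implantation. The IL-12 group received microspheres (2 mg of beads with 0.5 µg of recombinant IL-12) injected into the tumour on day 10. The combination group received both, and the unirradiated group received neither. The protocols also name empty microspheres without saying which groups were given them, and they give no mouse age and no day of harvest. CD8 and IM had 3 libraries in every group. TAM had 3 libraries after IL-12 and 2 in each of the SBRT, combination and unirradiated groups. The labels do not say whether libraries came from separate mice, so the p-values measure the spread between libraries, which may be technical.

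IL-12 is a cytokine of antigen-presenting cells that signals through STAT4 in activated T cells and natural killer cells and promotes interferon gamma production and cytotoxic function. T cells that leave the resting state and divide replace much of their transcription programme, with genes of quiescence going down while metabolic, effector and cell cycle genes go up. The 8 genes belong to no single pathway. They encode an enzyme, a transporter, a pair of kinases, a deubiquitinase and proteins linked to microtubules, to differentiation and to growth arrest.

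Acss1 encodes the mitochondrial acetyl-CoA synthetase, which makes acetyl-CoA from acetate. It lies on the minus strand of mouse chromosome 2 (GRCm38, chr2:150618105-150668500). Slc43a1 encodes LAT3, a transporter of large neutral amino acids, and lies on the plus strand at chr2:84838850-84863594. Camkk1 encodes a calcium/calmodulin-dependent protein kinase kinase and lies at chr11:73019008-73042073 on the plus strand. Matk, also known as Chk, encodes a kinase related to Csk that phosphorylates and restrains Src family kinases, and lies at chr10:81252935-81263365 on the plus strand. Usp28 encodes a ubiquitin-specific protease that stabilises MYC and binds 53BP1 in human cells, and lies at chr9:48985375-49042517 on the plus strand. Nckap5l encodes a protein, also called Cep169 in human cells, that binds microtubule plus ends and centrosomes, and lies at chr15:99422035-99457748 on the minus strand. Mturn encodes maturin, first described as a factor of neural differentiation in Xenopus, at chr6:54681624-54703851 on the plus strand. Ypel3 encodes a member of the yippee-like family, a p53 target linked to growth arrest in human cells, at chr7:126776955-126780514 on the plus strand.

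The promoters of Acss1, Mturn and Ypel3 are shown because they carry what the members' start regions did and did not share. All 8 genes matched a RefSeq promoter entry (GRCm38.p6), which runs from 250 bases before the annotated start to 50 after it. Capitals mark motif matches, GGGCGGG of the SP and KLF factors in Acss1 and Mturn (on the other strand CCCGCCC), TGACGTCA, the cyclic AMP response element (CRE), in Mturn, and GTAAACA of the FOXO factors in Ypel3. The Acss1 promoter is the minus strand of chr2:150668191-150668490, that of Mturn the plus strand of chr6:54681374-54681673, and that of Ypel3 the plus strand of chr7:126776713-126777012.
Acss1 promoter: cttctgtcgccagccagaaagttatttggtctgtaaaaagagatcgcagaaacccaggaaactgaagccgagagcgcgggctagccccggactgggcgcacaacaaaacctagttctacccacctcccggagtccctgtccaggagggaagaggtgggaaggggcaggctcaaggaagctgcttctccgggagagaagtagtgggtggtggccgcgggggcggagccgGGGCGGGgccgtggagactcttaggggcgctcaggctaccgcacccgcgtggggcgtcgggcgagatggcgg
Mturn promoter: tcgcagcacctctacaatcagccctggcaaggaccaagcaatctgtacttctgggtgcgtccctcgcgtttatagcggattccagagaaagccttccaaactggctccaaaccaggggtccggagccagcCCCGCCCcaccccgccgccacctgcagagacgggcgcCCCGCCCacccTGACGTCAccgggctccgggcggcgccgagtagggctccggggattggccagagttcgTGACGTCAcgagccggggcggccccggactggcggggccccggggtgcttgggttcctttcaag
Ypel3 promoter: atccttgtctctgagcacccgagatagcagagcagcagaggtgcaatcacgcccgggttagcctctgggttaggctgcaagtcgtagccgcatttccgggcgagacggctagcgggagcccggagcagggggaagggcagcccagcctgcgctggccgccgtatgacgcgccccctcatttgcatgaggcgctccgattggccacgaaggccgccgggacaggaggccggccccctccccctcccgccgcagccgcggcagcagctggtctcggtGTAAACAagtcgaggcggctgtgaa

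GGGCGGG was present in the promoters of 6 of the 8 members, all but Matk and Ypel3, against 27.9% of all 27025 genes with an entry. The letters of 8 more motifs were sought on both strands. TGACGTCA occurred only in Mturn among the members, once ending 7 bases before the start and once ending 65 bases before it, against 2.03% of all genes. GTAAACA occurred only in Ypel3 among the members, 25 bases after the start, against 4.05% of all genes. The E-box CACGTG occurred only in Slc43a1 among the members, against 8.09% of all genes. No member's window held the STAT motif TTCNNNGAA (9.55% of all genes), the RUNX motif TGTGGTT (6.09%), the TCF and LEF motif CTTTGAT (4.29%), the T-box motif TCACACCT (1.48%) or the ETS motif ACCGGAAGT (1.21%). Matches of different motifs did not overlap. The members' promoters had 59% to 75.3% G and C, against a median of 52.7% over all entries.

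The authors' deposited tables give, for each gene, a mean normalised count over the libraries of a population (here the level), a log2 fold change of a treated group over the unirradiated group, and a p-value adjusted over the genes tested. The fold changes appear to be shrunken towards 0, which is inferred from the values, as the DESeq2 settings are not given. They may therefore understate differences. The word called marks genes with an adjusted p below 0.05 in these tables. Values of single libraries and their depth are not known here. Group levels were therefore worked back from the mean level and the 3 fold changes, and they carry no error of their own. In bulk RNA of this kind, fewer cells of a type and less RNA per cell cannot be told apart.

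The sorted cells carried their own markers. In the CD8 libraries the 10 CD8 T cell markers had levels of 6534 to 44854, and in IM and TAM the highest macrophage and monocyte marker reached 710035 and 593744. The CD8 libraries also held macrophage and monocyte RNA, with 12 markers at levels of 194 to 16630. Epithelial markers reached a level of 905 there and fibroblast markers 194, with 1 of 8 in each list below a level of 1 (Cldn4 and Pdgfra). The summed levels of the 12 macrophage and monocyte markers in CD8 cells were 38433 after SBRT, 38034 after IL-12, 31753 after the combination and 33592 in unirradiated tumours. Their median log2 fold change after the combination was -0.42, with 0 of 12 called by the authors' DESeq2 test and 6 at an unadjusted p below 0.05. The summed CD8 T cell markers were 229707 after SBRT, 268398 after IL-12, 232914 after the combination and 258573 in unirradiated tumours, with 0 of 10 called in any of the 3 comparisons and 2, 0 and 0 at an unadjusted p below 0.05. The 8 natural killer markers summed to 8408 after SBRT, 11038 after IL-12 and 12422 after the combination, against 8474 in unirradiated tumours, with 1 called higher after IL-12 (Klre1) and 1 after the combination (Gzma, which is also an effector gene of CD8 T cells). The 10 B and plasma cell markers summed to 9707, 9688 and 7414, against 10487 in unirradiated tumours, with 1 called lower after SBRT and 1 after the combination. Of 4 fibroblast markers tested after the combination 1 was called lower. Of 14 dissociation stress genes, 1 was called lower after the combination and 9 had an unadjusted p below 0.05, with a median of -0.30. The part of these other cells and of the stress genes in the members' values was not tested.

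In CD8 T cells every member had its highest group level in unirradiated tumours. After the combination 5 members had their lowest level (Acss1, Camkk1, Matk, Nckap5l and Ypel3), and after IL-12 alone the other 3 did (Slc43a1, Usp28 and Mturn). The median log2 fold change of the 8 genes was -0.45 after SBRT, -0.85 after IL-12 and -1.0 after the combination. Over all genes tested it was -0.00, -0.01 and -0.03. The members called lower in the authors' deposited tables were 1 of 8 after SBRT, where 0.165% of all genes tested were called lower and 0.306% higher, 5 of 8 after IL-12 (1.04% lower, 1.48% higher) and 7 of 8 after the combination (2.96% lower, 4.51% higher). No member was called higher. The IL-12 and combination counts follow from how the genes were chosen. With the statistics rescaled to the spread of genes with a level of at least 50, the members called lower were 0 after SBRT, 1 after IL-12 and 4 after the combination. Here and below, rescaled statistics were adjusted over all genes with a p-value, which are more than the authors tested. A call lost in this way need not be lost by the rescaling alone. All 3 comparisons use the same 3 unirradiated libraries, so their values stand side by side and are not independent of one another.

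The acetyl-CoA enzyme and the transporter differed in which treatment gave the lowest value. Acss1 had an implied level of 1634 after SBRT, 1328 after IL-12 and 1086 after the combination, against 2635 in unirradiated tumours. Each treated group was thus well below the unirradiated one, and the log2 fold changes were -0.69 ± 0.155, -0.99 ± 0.155 and -1.28 ± 0.155 (standard error) after SBRT, IL-12 and the combination. Acss1 was the member called after SBRT, with a deposited adjusted p of 0.0113 from the authors' DESeq2 test. That call was lost (adjusted p = 0.998) when the test statistics were rescaled to the spread of genes with a level of at least 50 and adjusted over all genes with a p-value. Slc43a1, the member with the lowest level in CD8 cells (mean 135), stood at 156 after SBRT, 87.4 after IL-12 and 122 after the combination, against 177 in unirradiated tumours. Its log2 fold change was -1.02 ± 0.209 after IL-12, -0.54 ± 0.212 after the combination and -0.18 after SBRT, where the adjusted p was 0.806. The combination value was 0.49 ± 0.300 above the IL-12 value on the log2 scale; such differences were taken with 1 standard error shared by the tables, and can differ slightly from those of the printed values.

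**Figure D1:**
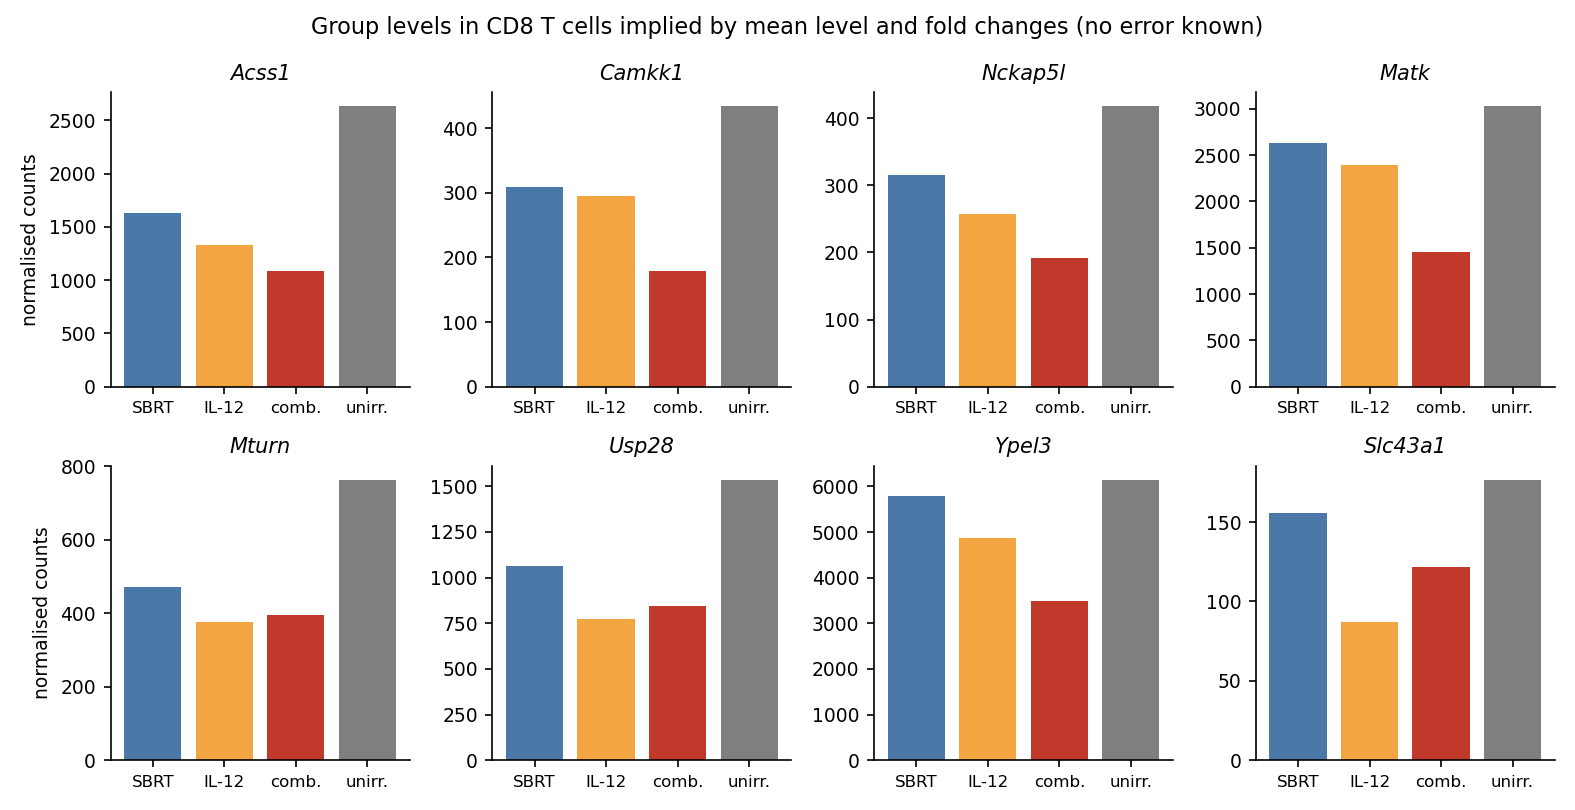
Levels of the 8 genes in CD8 T cells, 1 panel per gene, as normalised counts worked back from the deposited mean level and fold changes (bars, axes from 0, no error known; 3 libraries per group). In every panel the unirradiated bar is the highest; Acss1 stood at 1086 after the combination against 2635 in unirradiated tumours.

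Both kinases were lowest after the combination. Camkk1 stood at 309 after SBRT, 295 after IL-12 and 179 after the combination, against 434 in unirradiated tumours. Its log2 fold changes were -0.49 ± 0.214, -0.56 ± 0.212 and -1.28 ± 0.208, so the combination value was 0.75 ± 0.300 below that of IL-12 alone. Matk stood at 2631 after SBRT, 2392 after IL-12 and 1454 after the combination, against 3030 in unirradiated tumours. The single treatments left Matk within 0.34 of unirradiated tumours on the log2 scale (-0.20 after SBRT and -0.34 ± 0.186 after IL-12), while the combination value was -1.06 ± 0.184. The difference between the combination and IL-12 alone was -0.73 ± 0.263 for Matk. After SBRT neither kinase was called by the authors' test (adjusted p of 0.355 for Camkk1 and 0.741 for Matk). That comparison did not choose the members, but it shares its unirradiated libraries with those that did.

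Usp28 and Mturn had nearly the same value after IL-12 with and without radiation. Usp28 stood at 1062 after SBRT, 773 after IL-12 and 845 after the combination, against 1537 in unirradiated tumours. Its log2 fold changes were -0.53 ± 0.248, -0.99 ± 0.236 and -0.86 ± 0.240. Mturn stood at 470 after SBRT, 377 after IL-12 and 396 after the combination, against 763 in unirradiated tumours. The log2 fold changes of Mturn were -0.70 ± 0.215, -1.02 ± 0.212 and -0.95 ± 0.213. The combination minus IL-12 alone was 0.14 for Usp28 and 0.07 for Mturn on the log2 scale, each smaller than the standard error of either fold change. After SBRT the adjusted p was 0.389 for Usp28 and 0.117 for Mturn.

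Nckap5l and Ypel3 were lowest after the combination. Nckap5l stood at 316 after SBRT, 257 after IL-12 and 191 after the combination, against 418 in unirradiated tumours, and its log2 fold changes after IL-12 and the combination were -0.70 ± 0.217 and -1.13 ± 0.214. The TruSeq kit V2 does not mark strand, and 10.7% of Nckap5l exon bases overlap the antisense gene Nckap5los, so their reads cannot be told apart where they overlap; Nckap5los had a level of 1.75 in CD8 cells. Ypel3, the most abundant member (mean level 5082, or 2750 per kb of exon, against 23.7 per kb for Slc43a1), stood at 5798 after SBRT, 4878 after IL-12 and 3500 after the combination, against 6153 in unirradiated tumours. Its log2 fold change was -0.09 after SBRT, -0.33 ± 0.104 after IL-12 and -0.81 ± 0.104 after the combination. The fold change of Ypel3 was the smallest of the 7 members called after the combination, and its standard error was the smallest of the 8. After SBRT the adjusted p was 0.497 for Nckap5l and 0.811 for Ypel3.

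Among genes called lower in CD8 cells at a mean level of at least 50, ranked by fold change, Mturn, Slc43a1, Usp28 and Acss1 held places 3, 4, 6 and 7 of 144 after IL-12, and Nckap5l place 52. After the combination Camkk1, Acss1, Nckap5l, Matk, Mturn, Usp28 and Ypel3 held places 2, 3, 6, 9, 21, 45 and 63 of 440. The genes on either side of Nckap5l after IL-12 were Crtc1 (-0.71), a coactivator of CREB, and Acss2 (-0.70). Those on either side of Ypel3 after the combination were Cxcl1 and Sidt1, both at -0.81. The gene with the lowest value after the combination was Tmie (-1.57), which encodes a protein of the hair cell mechanotransduction complex, and is no member.

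**Figure D2:**
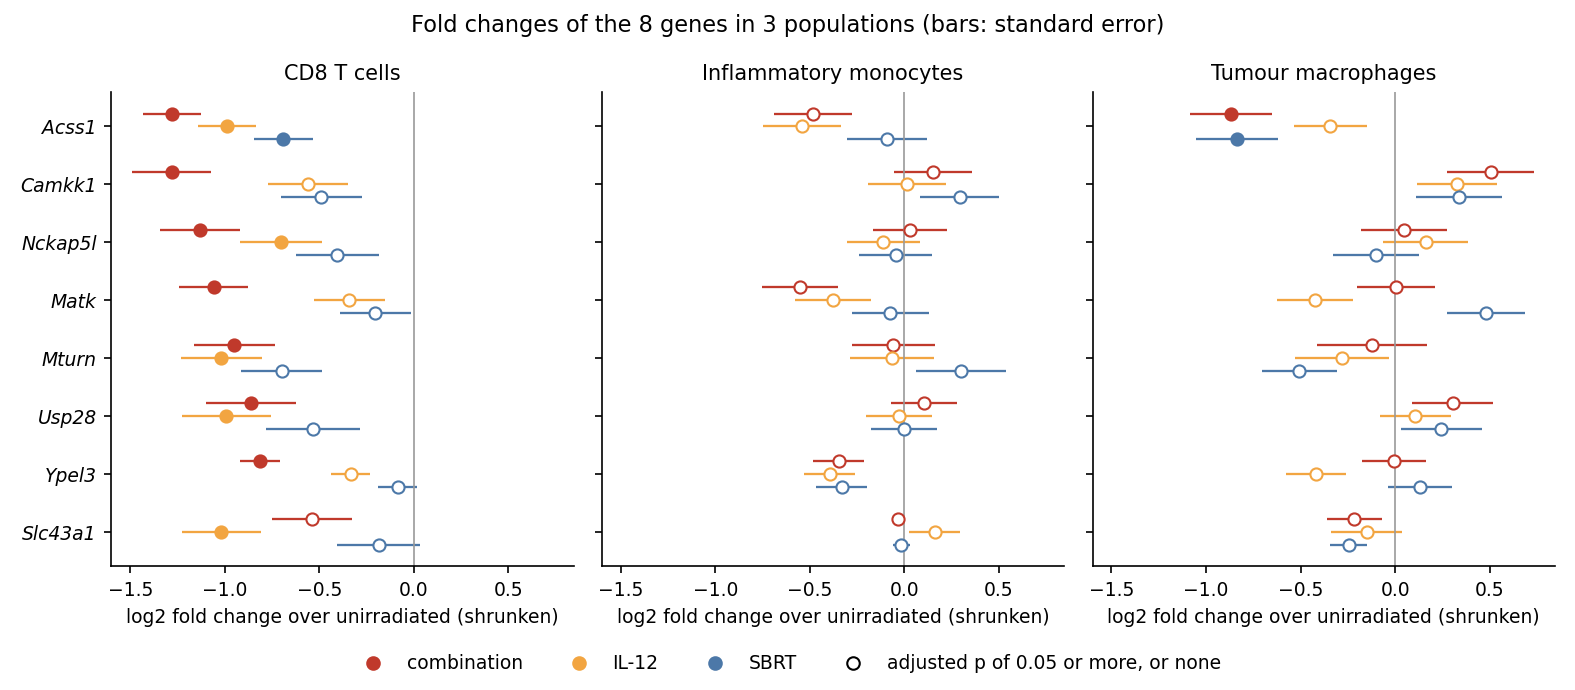
Log2 fold changes over unirradiated tumours (x axis, as deposited and apparently shrunken) of the 8 genes in CD8 T cells, inflammatory monocytes and macrophages. Bars are standard errors and filled points have a deposited adjusted p below 0.05. In CD8 cells all points lie left of 0, where the genes were chosen; in the myeloid populations the 2 filled points are both Acss1, at -0.84 and -0.87 in macrophages.

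The monocyte and macrophage tables took no part in choosing the genes. Of 48 values in these 6 comparisons, 42 were tested by the authors and 2 were called, both for Acss1 in TAM. Slc43a1 was not tested in either population, where its level was 2.44 in IM and 4.87 in TAM. In TAM, Acss1 stood at 671 after SBRT, 945 after IL-12 and 656 after the combination, against 1198 in unirradiated tumours. Both irradiated groups were low and IL-12 alone lay between them and the unirradiated group. Acss1 fell after SBRT (log2 fold change -0.84 ± 0.216, adjusted p = 0.0101) and after the combination (-0.87 ± 0.216, adjusted p = 0.00375) by the authors' DESeq2 test, whereas after IL-12 its value was -0.34 ± 0.192 (adjusted p = 0.841). Acss1 was the 1 member of 8 called lower in each of the SBRT and combination tables, in which 1.15% and 1.97% of all genes tested in TAM were called lower and 0.933% and 2.24% higher. Both calls were lost, with adjusted p of 0.0674 and 0.115, in 1 alternative. There the statistics were rescaled to the spread of genes with a level of at least 50 and adjusted over all genes with a p-value. The rescaling without the wider adjustment was not run. The difference in Acss1 between the combination and SBRT in TAM was -0.03, and that between the combination and IL-12 was -0.48 ± 0.305 (unadjusted p = 0.114), neither of which was called.

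In the same macrophage comparisons 14 of 20 cell cycle genes fell after SBRT and 11 of 20 after the combination, and Camk1, a calmodulin-dependent kinase, fell by 0.52 and 0.77 on the log2 scale (adjusted p of 0.0321 and 7.35e-05, authors' DESeq2 test). Of 18 enzymes of acetate and acetyl-CoA metabolism tested after SBRT and 17 after the combination, which do not include Acss1, 0 fell in TAM, 0 were called in either direction by the same test, and 1 and 2 had an unadjusted p below 0.05. Under the alternative in which the Acss1 calls were lost, 8 and 4 cell cycle genes were called, and Camk1 had adjusted p of 0.166 after SBRT and 0.0110 after the combination. Markers of fibroblasts and of B and plasma cells were also lower in these TAM libraries, while the summed levels of some other marker lists were higher. The cross-presenting dendritic cell markers summed to 33649 after SBRT and 38777 after the combination, against 28962 in unirradiated tumours. That sum is mostly 1 gene, at a mean level of 28353, against a median level of 388 over the list. The list's median log2 fold changes were 0.12 and 0.03, with 0 of 9 tested called after SBRT and 1 of 8 called higher after the combination. Of 7 fibroblast markers tested, 2 fell after SBRT and 3 after the combination, and the list summed to 1883 and 2010, against 3243 in unirradiated tumours. Of 8 B and plasma cell markers tested, 3 and 2 fell, and the list summed to 4009 and 4162, against 6602 in unirradiated tumours. Under the alternative in which the Acss1 calls were lost, 2 and 1 fibroblast markers and 0 and 1 B and plasma cell markers were called. The part of any of these in the Acss1 values was not tested.

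In monocytes 0 of 8 members were called in any comparison by the authors' test, where 0.14%, 1.33% and 3.03% of genes tested were called lower and 0.379%, 1.91% and 3.69% higher after SBRT, IL-12 and the combination. At an unadjusted p below 0.05 there were 6 of 24 values. With the statistics rescaled to their spread over all genes, 1 member was called lower after SBRT, 2 after IL-12 and 2 after the combination. That spread was 0.73, 0.78 and 0.85, so the rescaling enlarged the statistics of all genes. The shares above are those of the authors' test, and the share of all genes called under this rescaling is not given here. Acss1 stood at 589 after SBRT, 431 after IL-12 and 450 after the combination, against 628 in unirradiated tumours, with log2 fold changes of -0.09, -0.54 ± 0.206 and -0.48 ± 0.207 (adjusted p of 0.994, 0.159 and 0.171). Both groups given IL-12 were the low ones, but the difference did not pass the test. Ypel3 stood at 2332 after SBRT, 2231 after IL-12 and 2306 after the combination, against 2934 in unirradiated tumours, and its log2 fold changes of -0.33, -0.40 and -0.35 (each ± 0.135) had adjusted p of 0.441, 0.0827 and 0.108. Matk stood at 1880 after SBRT, 1524 after IL-12 and 1350 after the combination, against 1980 in unirradiated tumours. Its largest change in monocytes, -0.55 ± 0.201 after the combination, had an adjusted p of 0.0761.

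The other members had no called change in monocytes. The log2 fold changes of Camkk1 were 0.29 ± 0.209 after SBRT, 0.01 after IL-12 and 0.15 after the combination. Those of Usp28 were -0.00, -0.03 and 0.10, and those of Nckap5l were -0.05, -0.11 and 0.03. Mturn, at a level of 42.0, had 0.30 ± 0.239, -0.06 and -0.06. After SBRT the values of Camkk1 and Mturn stood at percentiles 94.9 and 95.3 of the fold changes of all genes tested. The median over the 8 genes in monocytes was -0.03 after SBRT, -0.09 after IL-12 and -0.05 after the combination.

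In macrophages 4 of the 8 values were below 0 after SBRT, 5 after IL-12 and 4 after the combination, and no member other than Acss1 was called. With the statistics rescaled to their spread over all genes, 3 members were called lower and 1 higher after SBRT, and 1 lower after IL-12. The 3 were Acss1, Mturn and Slc43a1, of which Slc43a1, at a level of 4.87, was not tested by the authors. That spread was 0.74 after SBRT and 0.71 after IL-12, so the rescaling enlarged the statistics of all genes. The share of all genes called under it is not given here. In the authors' test 0.284% of genes tested in TAM were called lower and 0.651% higher after IL-12. Camkk1 stood at 928 after SBRT, 919 after IL-12 and 1040 after the combination, against 733 in unirradiated tumours, so every treated group lay above the unirradiated one. Its log2 fold changes in TAM were 0.34, 0.33 and 0.50 ± 0.229, with adjusted p of 0.737, 0.946 and 0.251. Matk stood at 2528 after SBRT, 1353 after IL-12 and 1818 after the combination, against 1814 in unirradiated tumours. It was highest after SBRT and lowest after IL-12, at 0.48 ± 0.206 (adjusted p = 0.306) and -0.42 ± 0.199 (adjusted p = 0.632). Ypel3 was at -0.42 ± 0.158 after IL-12 (adjusted p = 0.333), 0.13 after SBRT and -0.01 after the combination. Mturn, at a level of 26.3, was at -0.51 ± 0.199 after SBRT (adjusted p = 0.224). Usp28 ranged from 0.11 to 0.30 and Nckap5l from -0.10 to 0.16 over the 3 comparisons in TAM.

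Whether monocytes and macrophages differed in the members' responses was tested on the difference of their effects (IM minus TAM, normal test, adjusted over 30093 genes). An effect was the test statistic times the median standard error of the population's 3 comparisons. It is on the log2 scale and can differ from the printed fold change. None of the 8 genes was called after any treatment, where 0.263% of all genes were called after SBRT, 0.0598% after IL-12 and 0.917% after the combination. At an unadjusted p below 0.05 there were 4 members after SBRT and 0 after IL-12 or the combination. The 4 included Mturn, with a difference of 0.91 (95% interval 0.26 to 1.56, adjusted p = 0.487), from effects of 0.28 in IM and -0.63 in TAM. They also included Acss1, with a difference of 0.75 (95% interval 0.16 to 1.33, adjusted p = 0.615). The rest were Ypel3 and Slc43a1, the latter at a level of 2.44 in IM and 4.87 in TAM. With only genes at a level of at least 50 in both populations, 2 members remained. The share of all genes at an unadjusted p below 0.05 is not given here. After the combination the Acss1 difference was 0.39 (95% interval -0.20 to 0.97), and the lowest adjusted p was 0.694, for Matk, at a difference of -0.56 (95% interval -1.12 to 0.01). Within IM and within TAM, the difference between the combination and either single treatment was called for 0 of 8 members, and 0 had an unadjusted p below 0.05. The share of all genes called was 0.204% for the combination minus SBRT and 0% for the combination minus IL-12 in IM, and 0.00309% and 0.0741% in TAM. With the variance of the shared controls removed, 0 members were called, and 1 to 3 per comparison had an unadjusted p below 0.05. Differences between CD8 cells and the myeloid populations were not tested, since the genes were chosen on their CD8 values.

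Paralogues show how far the CD8 values extended to genes of the same families. Of 12 paralogues, 10 were tested after the combination, and 2 fell and 1 rose, where 2.96% of all genes tested were called lower and 4.51% higher. Acss2, the cytosolic and nuclear acetyl-CoA synthetase, fell after IL-12 (log2 fold change -0.70 ± 0.190, adjusted p = 0.0163) and after the combination (-0.57 ± 0.190, adjusted p = 0.0407) by the authors' DESeq2 test. Ypel5 fell after the combination (-0.41 ± 0.098, adjusted p = 0.00126), and Ypel2 was at -0.67 ± 0.231 (adjusted p = 0.0507), Ypel1 at -0.40 (adjusted p = 0.322) and Ypel4 at 0.03. Slc43a3, a nucleobase transporter of the same family as Slc43a1, rose in CD8 cells (0.74 ± 0.201, adjusted p = 0.00672) and in monocytes (0.84 ± 0.222, adjusted p = 0.00482) after the combination, while Slc43a2 (LAT4) was at -0.17 in CD8 cells. Camkk2 was at 0.05, Usp25 at -0.05 and Csk at -0.16 after the combination in CD8 cells, none called. Acss3 was listed at a level of 0 and Nckap5 at 1.75, and neither was tested. The calls of paralogues in CD8 cells, and that of Slc43a3 in monocytes, were lost when the statistics were rescaled to the spread of genes with a level of at least 50, and the difference between a member and its paralogue was not tested.

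**Figure D3:**
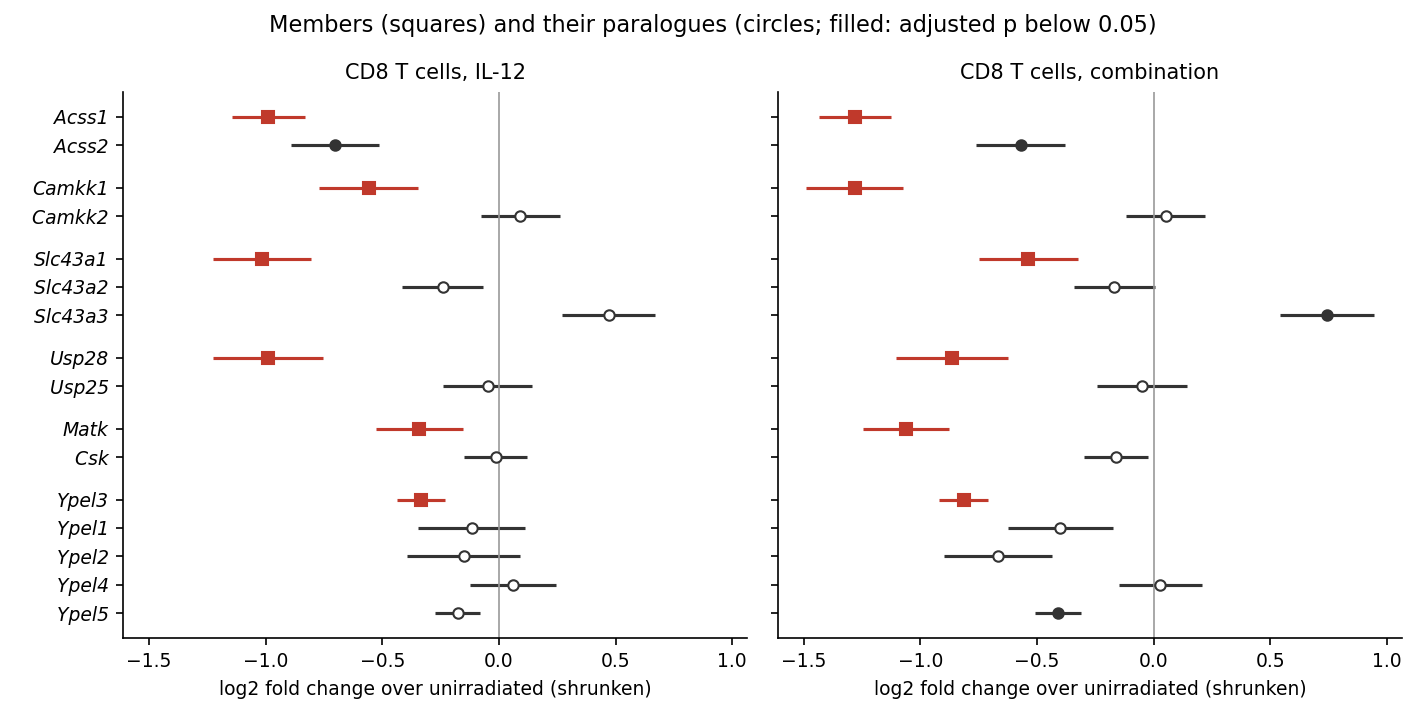
Log2 fold changes over unirradiated tumours (x axis, as deposited and apparently shrunken) in CD8 T cells after IL-12 and after the combination. Squares are 6 members and circles their paralogues, filled where the deposited adjusted p was below 0.05. Bars are standard errors. After the combination Acss2 (-0.57) and Ypel5 (-0.41) were lower, as their family members Acss1 and Ypel3 were, and Slc43a3 (0.74) was higher.

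Around the 8 genes, lists of functionally related genes that hold no member were followed in CD8 cells. Of 17 acetate and acetyl-CoA enzymes tested, 2 fell and 0 rose after IL-12, namely Acss2 and the pyruvate dehydrogenase kinase Pdk1 (-0.74 ± 0.188, adjusted p = 0.0112). After the combination 2 fell, Acss2 and the pyruvate dehydrogenase phosphatase subunit Pdp2 (-0.49 ± 0.132, adjusted p = 0.00703), and citrate synthase, Cs, rose (0.26 ± 0.087, adjusted p = 0.0384). Of 17 calcium and calmodulin kinase genes, 2 fell after the combination, Stk11 (-0.73 ± 0.144, adjusted p = 4.38e-05), which encodes the kinase LKB1, and Camk2d (-0.56 ± 0.159). Camk4 fell by 0.39 after IL-12. Of 18 amino acid transporters, 0 fell and 3 rose after the combination. They were Slc43a3, the cystine transporter Slc7a11 (0.58 ± 0.112, adjusted p = 2.56e-05) and the large neutral amino acid transporter Slc7a5 (0.48 ± 0.103, adjusted p = 2.47e-04). The median log2 fold change of these 3 lists after the combination was -0.03, as it was over all genes tested.

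Among 20 deubiquitinases and genes of the 53BP1 pathway, 0 were called in CD8 cells after any treatment by the authors' test, with 0, 2 and 3 at an unadjusted p below 0.05 after SBRT, IL-12 and the combination, and their median after the combination was -0.13. Of 20 regulators of Src family kinases, Ptpn6, the phosphatase SHP-1, fell after the combination (-0.49 ± 0.124, adjusted p = 0.00267) and the other 19 were not called. Of 18 microtubule plus end genes, Apc fell (-0.46 ± 0.151, adjusted p = 0.0354) and the mitotic kinesin Kif2c rose (0.87 ± 0.164, adjusted p = 1.47e-05). In CD8 cells none of the calls in these lists of enzymes, kinases, transporters and microtubule genes held when the statistics were rescaled to the spread of genes with a level of at least 50.

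Lists of T cell state were followed in the same CD8 comparisons. Of 20 genes of T cell quiescence and the naive state, 1 fell after SBRT, 3 after IL-12 and 5 after the combination, and 0 rose. Their medians were -0.46, -0.47 and -0.52. The genes that fell after the combination included Bach2 (-1.11 ± 0.205), a repressor that restrains effector differentiation, Tcf7 (-0.84 ± 0.245), the factor TCF1 of naive and memory T cells, S1pr1 (-0.82 ± 0.244), which guides exit from tissues, and Foxp1 (-0.61 ± 0.176). Some of these falls were not confined to CD8 cells. After the combination Bach2 (-1.42 ± 0.219) and Foxp1 (-0.56 ± 0.135) also fell in monocytes, where 3 of the 20 genes fell and 1 rose. S1pr1 fell in macrophages (-1.68 ± 0.266), where 1 fell and 1 rose. In CD8 cells, of 20 effector genes, 0 rose after SBRT, 3 after IL-12 and 10 after the combination, among them Gzmb (1.05 ± 0.164) and Il2ra (1.04 ± 0.180), and 0 fell. Of 20 cell cycle genes, 1 rose after SBRT, 13 after IL-12 and 19 after the combination, among them Mki67 (0.86 ± 0.116) and Cdk1 (0.99 ± 0.138). Medians of the cell cycle list were 0.23, 0.53 and 0.75. After the same rescaling 1 quiescence gene, 2 effector genes and 11 cell cycle genes were past the threshold after the combination, 0, 0 and 2 after IL-12, and 0 of each after SBRT. The SBRT calls were also lost with adjustment over all genes. The part of the change in dividing cells in the members' values was not tested.

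**Figure D4:**
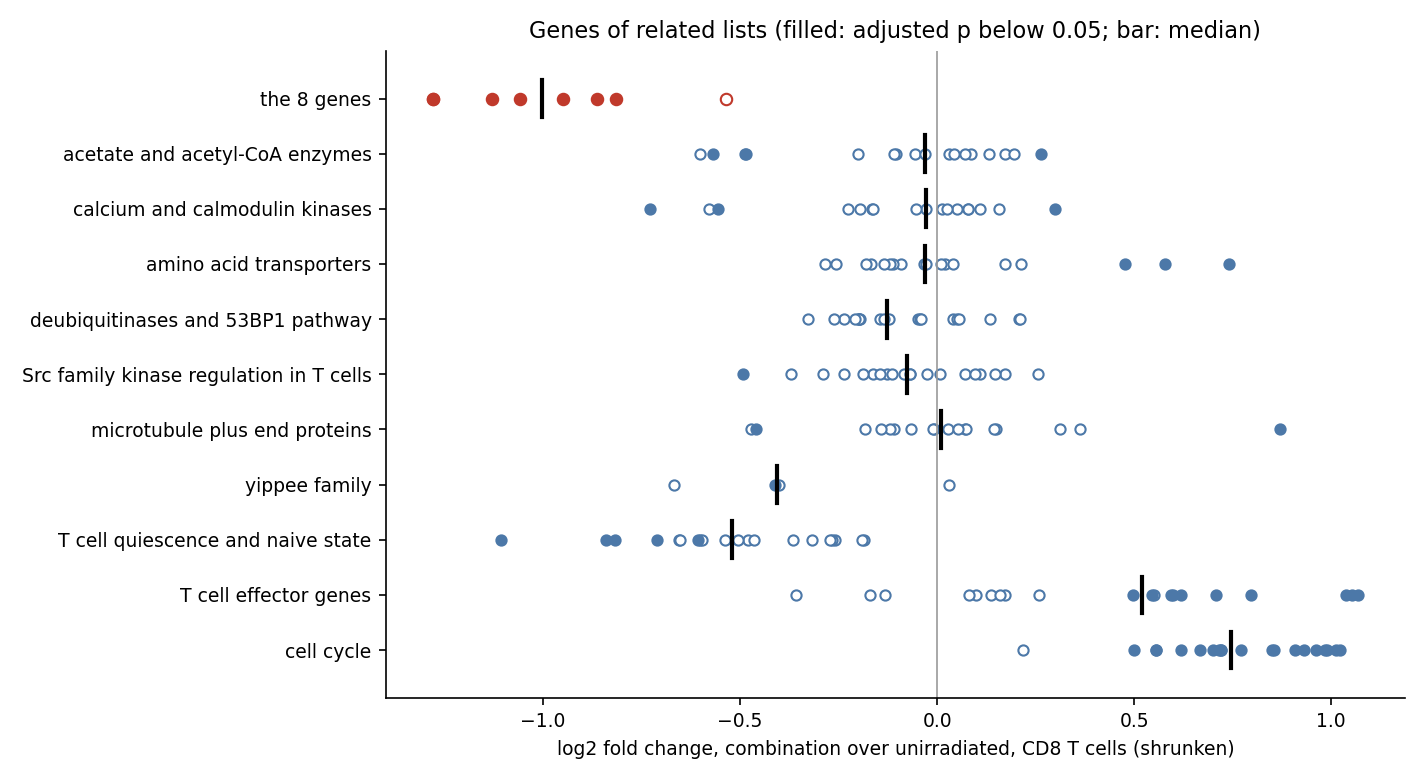
Log2 fold changes in CD8 T cells, combination over unirradiated tumours (x axis, as deposited and apparently shrunken), of the 8 genes (red) and of the tested genes of 10 related lists (blue). Filled points have a deposited adjusted p below 0.05 and black bars are medians. The median of the 8 chosen genes is -1.0, that of the quiescence list -0.52 and that of the cell cycle list 0.75.

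The genes beside the members on the chromosomes were not called with them. Of 16 annotated protein-coding neighbours (GENCODE M21), 11 were tested in CD8 cells after SBRT and 10 after IL-12 and after the combination, and 0 were called in any of the 9 comparisons by the authors' test. At an unadjusted p below 0.05 there were 3 of 31 values in CD8, 2 of 41 in IM and 1 of 40 in TAM. The neighbour with the lowest value in CD8 cells was Tbx6, a T-box factor gene 968 bp beyond Ypel3, at -0.56 after IL-12 (adjusted p = 0.198) and -0.51 after the combination (adjusted p = 0.189). The medians over the neighbours tested in CD8 cells were 0.18, 0.06 and 0.12 after SBRT, IL-12 and the combination.

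The 8 genes also differed among themselves over the 9 log2 fold changes. The distance used was the root mean square difference over these 9 values. The closest pairs were Matk and Ypel3 (0.184) and Nckap5l and Usp28 (0.203). The farthest were Acss1 and Camkk1 (0.731), which had almost the same value in CD8 cells after the combination and opposite signs in TAM. Among 10389 other genes with a mean level of at least 50 in CD8 cells and 10 in both myeloid populations, the profile nearest to the members' median was that of Cnr2 (0.0993), the cannabinoid receptor of immune cells. Next came Ifngr2 (0.125), a subunit of the interferon gamma receptor, then Zfp516 (0.146), Cfap74 (0.148) and Sidt1 (0.158). The 2 nearest genes to Acss1 were Sepp1 (0.197) and Timp2 (0.249), to Slc43a1 P2rx4 (0.156) and Crtam (0.160), to Camkk1 Thra (0.195) and Rgmb (0.223), and to Matk Synj2 (0.186) and Mxd4 (0.209). Usp28 was nearest to Cfap74 (0.149) and Prss12 (0.153), Nckap5l to Ifngr2 (0.130) and Cnr2 (0.136), Mturn to Pigw (0.174) and Zhx2 (0.188), and Ypel3 to Mxd4 (0.133), which encodes a MAX partner that opposes MYC, and Tnfsf8 (0.147). Slc43a1, at a level of 2.44 in IM and 4.87 in TAM, was itself below the level of 10 asked of the searched genes. Its distances therefore rest partly on myeloid values near the floor. All these distances are descriptions over 9 values that share control libraries within each population.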

How the data were processed

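RNA of sorted tumour CD8 T cells, IM and TAM was sequenced in 33 libraries of 12 groups. The submitters' processing notes name GRCm38 as the build and, as tools, STAR 2.6.0c, Salmon, featureCounts of Subread, FastQC 0.11.8 and Trimmomatic 0.36. What each tool did, its parameters and the annotation release are not given in the sources used here. The authors deposited 9 DESeq2 tables, comparing a treated with the unirradiated group within 1 population. Per the file headers they hold a mean normalised signal over the libraries, a log2 fold change, a Wald statistic (a score), a p-value and an adjusted p-value. The deposited p-value equalled the 2-sided normal probability of the statistic. No counts per library were used, so depth and its precision are unknown.

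The deposited adjusted p below 0.05 was the call. The standard error was the fold change over the statistic. Group levels were solved from the mean signal, the fold changes and the library numbers. Differences between comparisons were the difference in statistic times the median standard error of the population's 3 tables, tested against the normal distribution, with p-values adjusted over all genes by Benjamini-Hochberg (Python 3.11.15, numpy 2.4.6, pandas 2.3.3, scipy 1.17.1), tested on simulated data. Shared controls were treated as separate, which makes the tests within a population conservative.

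The members, the 25 gene lists and the motifs were chosen with earlier results of these data known. Named genes were the members, their paralogues and chromosomal neighbours, the list genes with the smallest adjusted p in CD8 after the combination or called elsewhere, the genes beside the members in rank and the genes nearest in profile, leaving out predicted genes and pseudogenes. Tmie was named after its value was seen. Alternatives were a filter at a level of 50, adjustment over all genes with a p-value, statistics rescaled to an empirical null, other standard errors and fold changes, and the control variance removed. Rescaled statistics were always adjusted over all genes with a p-value.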

Additional observations from a re-analysis of the deposited data

How the results depend on the processing

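Adjusting over all genes with a p-value, or testing only genes with a level of at least 50, left the number of members called within 1.5 times in all 9 comparisons. The first lost Nckap5l in CD8 after IL-12 (adjusted p = 0.106), and with it 0 related list genes were called in CD8 after SBRT, against 2 in the deposited tables. Rescaling the statistics to their spread over all genes made more calls. Members called lower were then 2 in CD8 after SBRT, 1 in IM after SBRT, 2 in IM after IL-12, 2 in IM after the combination, 3 in TAM after SBRT and 1 in TAM after IL-12, and 1 was called higher in TAM after SBRT. The 3 in TAM included Slc43a1, which the authors did not test there. The share of all genes called under this rescaling is not given here. Related list genes called were then 9 in CD8 after SBRT and 36 after IL-12 (2 and 23 in the deposited tables), 8, 19 and 25 in IM after SBRT, IL-12 and the combination (2, 9 and 15), and 9 and 30 in TAM after IL-12 and the combination (2 and 19). Rescaling to the spread of genes with a level of at least 50, an alternative chosen after seeing the data, made fewer calls. It also adjusted over all genes with a p-value, and the 2 changes were not run apart. Members called lower were then 0 in CD8 after SBRT, 1 after IL-12 and 4 after the combination, and 0 in TAM after SBRT and after the combination. Related list genes called were then 0, 2 and 14 in CD8 after SBRT, IL-12 and the combination (47 after the combination in the deposited tables), 1, 2 and 4 in IM, and 10 and 8 in TAM after SBRT and the combination (19 each). The cause was not tested. No member was called in a difference between comparisons under any alternative run, and no direction reversed. No paired analysis was possible because the tables hold no values per library, and for the same reason leaving out single libraries was not run.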
